A study of Mus musculus with 27 samples.

Results

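The comparison described here set the small RNA of chromatin against that of cytoplasm in a mouse neural progenitor cell line. Its members are 6 of the series' 27 libraries, chosen by their labels: 3 of mNPC chromatin and 3 of mNPC cytoplasm. The series also holds the soluble nucleoplasm of the same line. Further libraries are the same 3 fractions of the E14 embryonic stem cell line (mESC) and of primary cortical neurons (mCtx). The neurons were at day 5 of culture. The mNPC line was kept in DMEM/F12 with B27 lacking vitamin A and received EGF and FGF daily at 10 ng/ml. Nothing in the labels gives it a mutation, transgene or drug treatment, and its strain is not given in the sources used here. It is a single line, so its values describe that line. The libraries of a fraction are labelled as biological replicates, without saying that they came from separate cultures. Each p-value thus sets a difference against library-to-library spread that may be purely technical. In the main fit of single entries that spread was estimated over all 27 libraries, stem cells and neurons included, and not over the 6 alone.

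Small nucleolar RNAs (snoRNAs) are cut from introns of host genes and guide the chemical modification of ribosomal and spliceosomal RNA in the nucleus. Those of the C/D box type guide methylation and those of the H/ACA type guide pseudouridylation. MicroRNAs (miRNAs) are cut from a hairpin precursor, and a mature strand from its 5p or 3p arm then acts mostly in the cytoplasm to repress messenger RNA. Transfer RNAs (tRNAs) are made and trimmed in the nucleus and work in translation.

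The sequences below belong to the entries on which the comparison turned. The first set are snoRNAs that were high in chromatin, as annotated in GENCODE M21 on the GRCm38 genome and given 5′ to 3′. Capitals mark the C box TGATGA and the D box CTGA of C/D snoRNAs, and the ACA near the end of the H/ACA snoRNA Snora52.
Snord69: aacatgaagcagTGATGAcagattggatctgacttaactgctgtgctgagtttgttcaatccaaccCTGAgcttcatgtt
Snord104: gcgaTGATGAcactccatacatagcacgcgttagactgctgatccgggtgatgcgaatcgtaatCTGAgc
Snord60: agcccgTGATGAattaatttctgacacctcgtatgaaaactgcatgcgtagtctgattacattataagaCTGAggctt
Snord45c: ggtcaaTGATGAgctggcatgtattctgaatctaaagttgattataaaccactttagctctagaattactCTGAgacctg
Snord99: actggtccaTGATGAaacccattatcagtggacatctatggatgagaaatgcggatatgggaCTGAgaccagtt
Gm23212: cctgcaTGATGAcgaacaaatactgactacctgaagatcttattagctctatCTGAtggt
Gm22744: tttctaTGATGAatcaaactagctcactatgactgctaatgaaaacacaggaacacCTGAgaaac
Snora52: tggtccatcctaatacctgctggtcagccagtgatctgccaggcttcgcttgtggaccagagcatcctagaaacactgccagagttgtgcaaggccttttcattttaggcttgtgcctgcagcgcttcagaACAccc

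The boxes were searched on the transcript strand, the C and D boxes within 20 nt of either end and ACA at 3 nt from the 3′ end. Both boxes stood in 48 of the 78 snoRNA entries whose name marks a C/D snoRNA (61.5%) and in 53 of the 115 that carry only a predicted gene name beginning with Gm (46.1%). Of all 1507 snoRNA genes of that annotation, 309 held both (20.5%). The ACA stood in 21 of 26 entries named as H/ACA snoRNAs (80.8%), 26 of the Gm entries (22.6%) and 276 of all snoRNA genes (18.3%). These letter matches describe the sequences and are not shown to be working boxes.

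The second set are mature miRNAs from RefSeq on GRCm38.p6, with the seed (bases 2 to 8) in capitals. They include miR-16-5p and miR-21a-5p, listed at 0 in chromatin, the pair of arms of miR-423 whose balance changed, and abundant miRNAs of this line. miR-30a and miR-30e share a seed, as do the miR-181 members shown, and let-7f shares its seed with let-7i. RefSeq matched 366 of the 420 arm names in the table.
miR-16-5p: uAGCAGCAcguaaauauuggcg
miR-21a-5p: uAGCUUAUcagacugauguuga
miR-423-5p: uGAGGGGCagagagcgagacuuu
miR-423-3p: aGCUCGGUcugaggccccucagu
miR-125b-1-3p: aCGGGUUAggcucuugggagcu
miR-30a-5p: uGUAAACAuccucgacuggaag
miR-30e-5p: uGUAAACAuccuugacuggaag
miR-181a-5p: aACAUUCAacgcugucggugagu
miR-181b-5p: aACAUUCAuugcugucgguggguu
miR-22-3p: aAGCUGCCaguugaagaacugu
let-7f-5p: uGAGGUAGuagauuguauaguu
let-7i-5p: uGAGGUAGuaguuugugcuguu
miR-9-5p: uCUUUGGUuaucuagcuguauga

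Some whole hairpins, such as mir-16-1, were also table entries. In the hairpin Mir16-1 capitals mark miR-16-5p. For Mir423 the arms, but not the whole hairpin, were entries. In its hairpin capitals mark the 5p and then the 3p arm.
Mir16-1: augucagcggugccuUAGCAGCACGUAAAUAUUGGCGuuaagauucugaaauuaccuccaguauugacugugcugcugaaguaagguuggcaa
Mir423: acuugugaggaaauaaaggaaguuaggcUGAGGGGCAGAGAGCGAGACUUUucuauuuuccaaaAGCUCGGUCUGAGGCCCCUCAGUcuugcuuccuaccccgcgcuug

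The table gave each of 1013 annotated small RNAs, called entries here, in RPM, reads scaled to a common library size, in each library. A library of chromatin listed 335 to 431 entries above 0 and a library of cytoplasm 288 to 343. The lowest value above 0 was 32.5, 47.0 and 59.1 RPM in the chromatin libraries and 22.5, 28.2 and 40.6 RPM in the cytoplasmic ones, so an entry listed at 0 may still be present below that level. Listed values summed to 85.5% to 87.9% of the total the unit implies in chromatin and 94.8% to 95.6% in cytoplasm. Pearson's r across entries, which are not independent replicates, was 0.833 to 0.911 between chromatin libraries and 0.929 to 0.959 between cytoplasmic ones. Of the 17 listed entries of the miR-290 and miR-302 clusters, which mark pluripotent cells, none was above 0 in the 6 libraries. Of 17 neural progenitor miRNA entries 16 were above 0 in each fraction, summing to 48403 to 85042 RPM in chromatin and 125279 to 138489 RPM in cytoplasm. The neuronal list reached 354 to 711 RPM in chromatin and 1185 to 1413 RPM in cytoplasm, and the glial list 174 to 427 and 553 to 638 RPM. The summed microglia and blood list lay between 87.7 and 142 RPM and the endothelial and mesenchymal list between 112 and 345 RPM over the 6 libraries. The part of other cells in the results was not tested.

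Chromatin held a far larger share of snoRNA and a smaller share of miRNA than cytoplasm. snoRNA made up 23.3%, 31.2% and 40.5% of the listed reads of the chromatin libraries, and 0.0637%, 0.0639% and 0.0285% of those of cytoplasm. miRNA made up 71.9%, 63.0% and 53.6% in chromatin against 95.8%, 95.3% and 95.1%. In both classes the groups did not overlap, and the chromatin libraries differed far more among themselves than the cytoplasmic ones. snRNA, the RNA of the splicing machinery and its relatives, was 1.21% ± 0.325 in chromatin against 0.00923% ± 0.00253 in cytoplasm (SD, n = 3 each), and tRNA fragments were 1.11% ± 0.0812 against 0.0603% ± 0.0106. Whole tRNA entries were lower in chromatin, at 3.10% ± 0.295 against 4.19% ± 0.378. rRNA was listed at 0 in all chromatin libraries and at 0.182% ± 0.143 in cytoplasm. The nucleoplasm of the same cells, with 94.7% miRNA and 1.93% snoRNA on average, stood nearer to cytoplasm.

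For each of these 6 classes the exact two-sided permutation test gave p = 0.1, the smallest that 3 against 3 libraries allow, and 0.117 after Benjamini-Hochberg adjustment over 7 classes. For piRNA the exact p was 0.8. Shares and RPM give no amount per cell: more of one class means less of the others, and fewer cells or less RNA per cell cannot be told apart. Among reads outside snoRNA, miRNA was still lower in chromatin (91.8% ± 1.87 against 95.5% ± 0.353), while the tRNA difference turned to 0.432 percentage points higher in chromatin (exact p = 0.7).

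**Figure D1:**
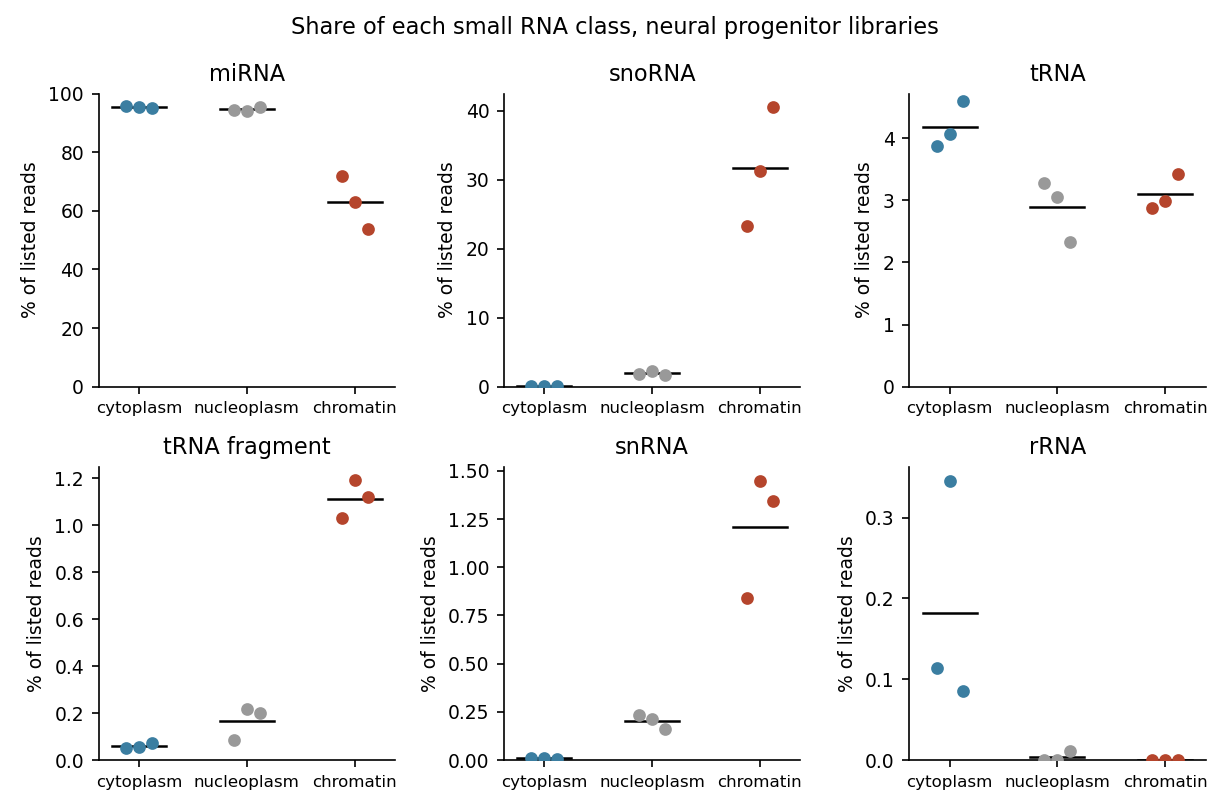
Share of listed reads (%, vertical axis) of the small RNA classes in the neural progenitor fractions; points are libraries and bars are means of 3. The chromatin points for snoRNA run from 23.3% to 40.5%, all above the cytoplasmic points, and those for miRNA from 53.6% to 71.9%, all below.

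Of the 851 entries tested with limma on log2(RPM + 1), 330 passed an adjusted p of 0.05 (38.8%), 164 higher in chromatin (19.3%) and 166 lower (19.5%). The filter ran over all 27 libraries, so 309 tested entries were listed at 0 in all 6 libraries compared here. Of the 330 called, 191 had a whole fraction listed at 0: cytoplasm for 143 higher and chromatin for 48 lower entries. Chromatin lay above cytoplasm without overlap for 140 entries (16.5%) and below it for 197 (23.1%). No 0 occurred in the 6 libraries for 176 entries. Of these 9 rose and 80 fell, with a median log2 difference of −0.81. That median moved to −0.07 when libraries were scaled to their miRNA reads, a shift of 0.74. On that scale 163 entries were higher (19.2%) and 86 lower (10.1%), so 65.5% of calls were higher against 49.7% in RPM. Differences of about −0.8 in RPM were thus the common level of these entries.

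**Figure D2:**
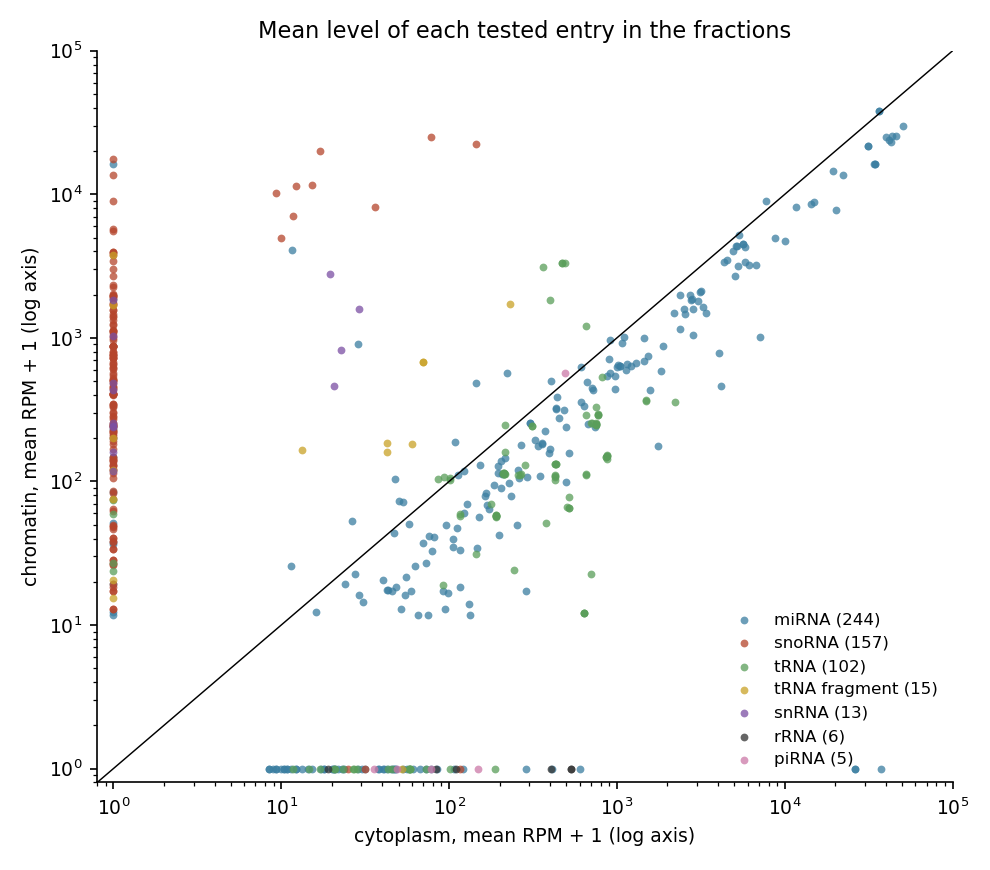
Mean RPM + 1 of each tested entry above 0 in either fraction, cytoplasm on the horizontal and chromatin on the vertical log axis, coloured by class; the diagonal is equality. Most miRNA and tRNA entries lie under the diagonal, and most snoRNA entries stand on the left edge, where cytoplasm is listed at 0.

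Among snoRNAs, 128 of 196 tested entries rose in chromatin (65.3%, against 19.3% of all entries) and 1 fell. By name, 50 of 74 C/D, 11 of 18 H/ACA and 60 of 91 Gm entries rose, and the Gm group held the single one that fell. The median fitted log2 difference of tested snoRNAs was 7.15 against 0 over all entries, but it depends on the pseudocount and was 1.96 when values under 59.1 RPM were raised to that level. Of the 128, 94 were above 0 in all 3 chromatin libraries and listed at 0 in all 3 of cytoplasm. The level was concentrated: the 5 highest entries held 36.0% of the mean chromatin snoRNA level, the 10 highest 54.4% and the 20 highest 70.9%. C/D entries were 64 to 238 nt long with a median of 78, and H/ACA entries 121 to 205 with a median of 132. The libraries were cut to 120 to 160 bp, and entries do not tell a whole RNA from a piece of it.

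Snord69, a C/D snoRNA within the gene Gnl3 (chr14:31014287-31014366, minus strand), was listed in every library. It had 19910, 19836 and 27525 RPM in chromatin and 148, 147 and 138 RPM in cytoplasm. The groups lay far apart, 7.25 ± 0.27 on the log2 scale (SE; limma, adjusted p = 3.5e-15). The nucleoplasm values of 1014, 1457 and 1243 RPM fell between them. Snord104 (chr11:106500993-106501062, plus strand), the most abundant snoRNA, had 21673, 26303 and 27478 RPM in chromatin against 85.5, 102 and 44.7 RPM. The groups again did not overlap, yet the fitted error was wide, at 8.40 ± 2.97 (SE, limma adjusted p = 0.0299). Leaving out any of the 6 libraries put its adjusted p between 0.0555 and 0.0761.

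Snord60 (chr17:24528476-24528553, plus strand, within Rab26os) was at 7136, 7144 and 12569 RPM in chromatin and listed at 0 in cytoplasm (limma adjusted p = 0.000116). Snord52, within 1110038B12Rik, had 10606, 15655 and 8396 RPM in chromatin and 42.7 RPM in 1 cytoplasmic library (limma adjusted p = 2.99e-07). The H/ACA snoRNAs were lower: Snora52, within the ribosomal protein gene Rplp2, had 429, 334 and 750 RPM, and Snora31, within Tpt1, had 602, 694 and 216 RPM, both listed at 0 in cytoplasm (limma adjusted p = 4.73e-06 and 8.55e-14). Snora16a, within Snhg12, showed 2939, 2918 and 0 RPM in chromatin, and its call (limma adjusted p = 0.0346) was lost without chromatin library 1 or 2 (0.163 and 0.172) or without any cytoplasmic library (0.0748 to 0.0767). For the H/ACA entries as a group, 7 in place of 11 rose when chromatin library 1 was left out or when only the 6 libraries were fitted. Scarna9, a guide RNA of Cajal bodies, where spliceosomal RNAs are modified, had 877, 1195 and 1258 RPM in chromatin and was listed at 0 in cytoplasm (limma adjusted p = 2.93e-11).

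Sorted by host gene, 213 of the 239 snoRNA entries lay within another gene on the same strand, 157 of them within a protein-coding one. Among the 29 hosts with at least 3 entries, 27 had a member that rose, where 65.3% of all tested snoRNA entries rose. Ribosomal protein genes, 28 in number, held 51 entries. Of 43 tested, 30 rose (69.8%, near the 65.3% of all snoRNA entries). In the limma fit 0 of them fell, also at an unadjusted p of 0.05. The non-coding hosts Snhg1, Gas5 and Snhg12 carried the highest mean sums in chromatin, although Gnl3, through Snord69 alone, lay above Snhg12 in libraries 1 and 2. The summed snoRNAs of Snhg1 reached 13843, 29859 and 67052 RPM in the chromatin libraries, those of Gas5 15808, 32874 and 26810 RPM, and those of Snhg12 15673, 15062 and 36863 RPM. The sums for Snhg1 and Snhg12 were highest in the library with the largest snoRNA share, the Gas5 sum in another. Rabggtb, a protein-coding host, gave 10808, 13294 and 15354 RPM from 3 snoRNAs, with cytoplasm listed at 0. Its members Snord45c (3975, 7076 and 6223 RPM), Snord45b (3777, 3551 and 4548 RPM) and Gm24494 (3055, 2667 and 4584 RPM) were of the same order (limma adjusted p = 3.65e-09, 9.76e-05 and 5.77e-13).

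Within a host, entries could differ widely. In Gas5, 5 of 9 tested snoRNAs rose, led by Gm23212 (chr1:161036682-161036741, plus strand) at 7045, 22428 and 11364 RPM with cytoplasm listed at 0 (limma adjusted p = 1.86e-09). In Snhg1, 5 of 8 rose. Gm22744 (chr19:8725092-8725156, plus strand) had 3345, 3480 and 9731 RPM and Gm23246 had 7835, 7615 and 15224 RPM in chromatin (limma adjusted p = 0.00128 and 0.000607). Its neighbour Gm22680 was at 0, 14399 and 38151 RPM, absent from the list of 1 chromatin library and the highest snoRNA of another. Gm25855, also in Snhg1, went the other way, at 0 in all chromatin libraries and 137, 120 and 87.3 RPM in cytoplasm (limma adjusted p = 2.23e-15). In Snhg12, 4 of 4 rose, among them Snord99 at 12131, 11542 and 36471 RPM against 0, 48.0 and 0 RPM (limma adjusted p = 0.000481). The 3 tested snoRNAs of the imprinted non-coding gene Rian were listed at 0 in all 6 libraries.

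A further group were RNAs that take part in RNA processing. All 5 tested rose, against 19.3% of all entries. U7, the RNA that guides the end cut of histone messages (Rnu7), had 771, 804 and 900 RPM in chromatin against 0, 0 and 65.0 RPM (limma adjusted p = 1.41e-05). Snord118 (U8), which acts in the maturation of large-subunit ribosomal RNA, had 456, 1585 and 1038 RPM, and Snord13, which acts on small-subunit ribosomal RNA, had 1281, 1249 and 2602 RPM. Both were listed at 0 in cytoplasm (limma adjusted p = 1.89e-07 and 9.9e-07). Among all snRNA entries 10 of 25 tested rose and 0 fell in the limma fit (11 and 0 at an unadjusted p of 0.05). The 10 are 40%, where 19.3% of all entries rose and 19.5% fell. Rnu5g, a U5 RNA of the main spliceosome, was at 1168, 1778 and 2561 RPM, and Rnu11, of the minor spliceosome, at 305, 226 and 771 RPM, both with cytoplasm at 0 (limma adjusted p = 0.000208 and 1.65e-07). Rnu12 was listed at 0 in all 6 libraries. Gm23143 reached 1991, 2644 and 3689 RPM against at most 28.2 RPM (limma adjusted p = 1.25e-06). Gm25099 had 0, 2618 and 2138 RPM, and its difference did not pass (limma adjusted p = 0.412).

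**Figure D3:**
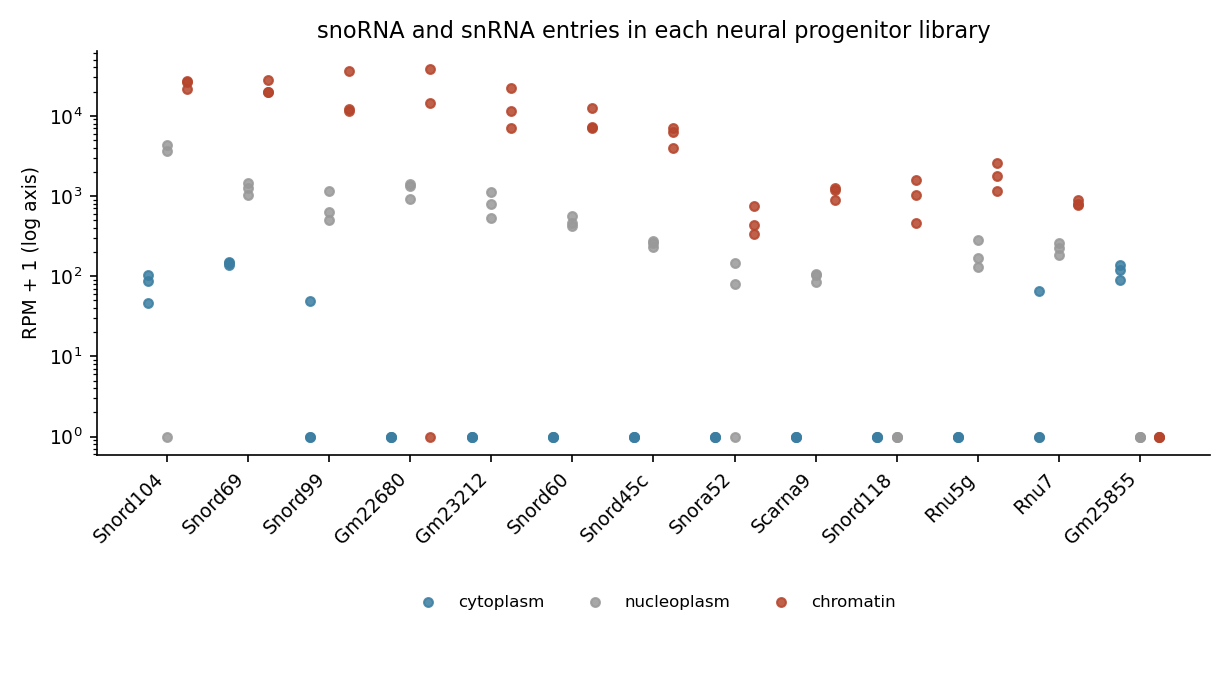
RPM + 1 (log axis) of named snoRNA and snRNA entries in each neural progenitor library, coloured by fraction. Chromatin points mostly stand highest, such as Snord69 at 19836 to 27525 RPM against 138 to 148 RPM in cytoplasm. Gm25855 goes the other way, with chromatin listed at 0, and Gm22680 has a chromatin library at 0. Points at the bottom are libraries listed at 0.

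Among miRNAs, 99 of 418 tested entries fell in chromatin (23.7%, near the 19.5% of all entries) and 12 rose. On the scale of miRNA reads, 50 fell (12%, against 10.1%) and 15 rose. Of the 114 miRNA entries above 0 in all 6 libraries, 44 fell and 0 rose in the limma fit (51 and 0 at an unadjusted p of 0.05), around a median of −0.78 that became −0.03 on the miRNA scale.

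Several abundant miRNAs of the line stood close to that level. miR-30a-5p, of a seed family also carried by miR-30e and miR-30d, had 38215, 28413 and 23249 RPM in chromatin and 41783, 53890 and 55589 RPM in cytoplasm. The groups did not overlap, and it fell by 0.77 ± 0.23 on the log2 scale (SE, limma adjusted p = 0.0101), but its difference was −0.03 on the miRNA scale and 0.01 when libraries were scaled on entries listed in all 27. Without chromatin library 3 its adjusted p was 0.0699. miR-22-3p had 31252, 23837 and 14826 RPM against 39715, 45871 and 43822 RPM, and fell by 0.95 ± 0.25 (SE, limma adjusted p = 0.00471), with −0.21 on the miRNA scale. Its groups did not overlap either, and chromatin library 3 was the lowest. miR-30e-5p fell by 0.92 in RPM and differed by −0.17 on the miRNA scale.

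For miR-181a-5p, chromatin values of 37795, 30264 and 46919 RPM overlapped the cytoplasmic 31440, 39157 and 38057 RPM. They differed by 0.07 ± 1.34 in log2 (SE; limma, adjusted p = 1). That error is wider than the distance from the common level, and a departure from that level was not tested. miR-181b-5p, with the same seed, had 9771, 8760 and 8187 RPM against 13870, 15643 and 15427 RPM. It fell by 0.75 (limma adjusted p = 0.0107), but the difference was −0.01 on the miRNA scale and 0.02 on that of shared entries. Whether these relatives differ from each other was not tested. let-7f-5p, one of the let-7 miRNAs that restrain growth and stem cell genes, differed by −0.78 and did not pass (limma adjusted p = 0.816). Its groups did not overlap, at 22848, 28911 and 24264 RPM against 51554, 37727 and 41590 RPM at the X-linked locus, and it passed when only the 6 libraries were fitted (limma adjusted p = 0.0193) or with a common floor (0.0208). miR-9-5p, a neural miRNA, had 21588, 16165 and 11260 RPM against 35803, 35600 and 31380 RPM. Its groups did not overlap, yet it did not pass in the fit over all libraries (−1.12 ± 0.91 SE, limma adjusted p = 0.432), while a fit of the 6 libraries alone gave 0.0196.

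Some miRNAs lay well below that common level. miR-423-5p had 166, 263 and 100 RPM in chromatin against 1763, 1731 and 1759 RPM in cytoplasm, a fall by 3.41 ± 0.31 (SE, limma adjusted p = 1.66e-08). The groups were far apart, and the difference was −2.67 on the miRNA scale. miR-125b-1-3p, from the 3p arm of a locus of the neural miRNA miR-125b, had 1293, 1152 and 585 RPM against 6871, 6806 and 7555 RPM, a fall by 2.89 ± 0.75 (SE, limma adjusted p = 0.0041). On the miRNA scale it was −2.14 and no longer passed (limma adjusted p = 0.053). miR-125b-2-3p, the matching arm of the other locus, fell by 1.77, from 1662, 1861 and 1974 RPM in cytoplasm to 857, 602 and 295 RPM. miR-125b-5p, which both loci give, had 2184, 1874 and 1559 RPM at the first locus against 2903, 2808 and 2644 RPM and did not pass (−0.58, limma adjusted p = 0.92). miR-298-5p fell by 1.47, with 8261, 10366 and 4545 RPM in chromatin against 20255, 18606 and 22027 RPM.

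Counts of the miRNA lists are read against 19.5% of all entries called lower in RPM and 10.1% on the miRNA scale. The let-7 (22.2%) and neural progenitor (23.5%) lists were near that share in RPM and the neuronal list (8.70%) under it. The let-7 list had 4 of 18 tested entries lower and 1 higher (3 and 2 on the miRNA scale), with a median of −0.48 that turned to 0.12. Without cytoplasmic library 1 or 2, 2 were lower. Of the list of the miR-17 to miR-92 clusters, which promote growth, 10 of 24 fell and 1 rose, against 3 and 1 on the miRNA scale. The 10 became 5 without chromatin library 3 or cytoplasmic library 2, 6 without cytoplasmic library 1, and 3 when only the 6 libraries were fitted. The miR-181 list had 6 of 10 lower, against 2, and the miR-30 list 6 of 10, against 3. The list of miR-10, miR-99, miR-100 and miR-125 had 6 of 12 lower, against 3. The neural progenitor list had 4 of 17 lower and 0 higher by limma (5 and 0 at an unadjusted p of 0.05), against 2 lower and 1 higher. Of the neuronal list 2 of 23 fell and of the glial list 2 of 4, and 1 of each did so on the miRNA scale. Without cytoplasmic library 2 or 3 the neuronal count was 4. The glial count was 0 by limma without chromatin library 3 (1 at an unadjusted p of 0.05) and 1 without chromatin library 2 or any cytoplasmic one.

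Which piece of a miRNA was listed also differed between the fractions. With hairpins and arms summed into one value, 296 of 711 sums were called (41.6%), 159 higher (22.4%) and 137 lower (19.3%). miR-16-5p has 2 entries, for the loci Mir16-1 and Mir16-2, and both were at 0 in chromatin. In cytoplasm they had 30606, 22458 and 25965 RPM, and 30540, 22404 and 25945 RPM. The hairpin entry mir-16-1 (chr14:61631880-61631972) showed the reverse, with 21219, 14449 and 13249 RPM in chromatin and 0 in cytoplasm (limma adjusted p = 6.38e-22). The hairpin mir-16-2 was listed at 0, 14425 and 13255 RPM in chromatin. Summed over hairpin and arms, mir-16 had 21219, 28874 and 26503 RPM against 61145, 44862 and 51909 RPM, a fall by 1.04 ± 0.22 (SE, limma adjusted p = 0.000529). If the near equal miR-16-5p entries are averaged as copies of the same reads, an alternative chosen after seeing the data, the difference is −0.04 (limma adjusted p = 1). That alternative averaged only entries of the same name. The hairpins mir-16-1 and mir-16-2, near equal in chromatin libraries 2 and 3, were still summed. Only the cytoplasmic values were thus lowered, and the fractions were not treated alike. The rule that assigned reads to a hairpin or an arm is not given in the sources used here, so a hairpin entry is not shown to be an uncut precursor.

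miR-21a-5p, a widely expressed growth-linked miRNA, was listed at 0 in chromatin and at 41524, 39807 and 30812 RPM in cytoplasm (limma adjusted p = 0.000202). Its hairpin was at 0 in all 6 libraries. In nucleoplasm the arm had 28795, 0 and 0 RPM and the hairpin 0, 26894 and 19378 RPM, so the libraries listing one did not list the other. The other arm, miR-21a-3p, was present in both, at 464, 181 and 70.9 RPM against 525, 616 and 357 RPM, and did not pass (−1.42, limma adjusted p = 0.728). miR-93-5p was at 0, 0 and 2369 RPM in chromatin against 3565, 4188 and 4411 RPM, while its hairpin entry was at 3258, 2361 and 0 RPM against 0. The libraries listing the hairpin thus were the ones not listing the arm. Summed, mir-93 fell by 0.62 (limma adjusted p = 0.0361). Of the 12 miRNA entries that rose, 7 were hairpin entries, 4 had no arm in their name, 1 was a 3p arm and 0 were 5p arms. Summing hairpin and arms ended the rise for others: mir-421 then fell by 1.19 (limma adjusted p = 0.00353), and mir-674 and mir-296 did not pass (1.36 and −0.53, limma adjusted p = 0.365 and 0.972).

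Other entries that rose had no listed partner arm. The hairpin entry mir-503 had 1056, 1082 and 561 RPM against 40.5, 42.4 and 0 RPM (limma adjusted p = 0.00217), and mir-326 had 211, 188 and 201 RPM with cytoplasm at 0 (limma adjusted p = 4.35e-09). miR-5099 reached 3551, 7086 and 1569 RPM against 31.9, 0 and 0 RPM (limma adjusted p = 6.54e-09). miR-3535, at 627, 948 and 1063 RPM with cytoplasm at 0, lies within the gene for nucleolin and overlaps the snoRNA entry Gm24148, which had 0, 132 and 543 RPM in chromatin. In all, 6 miRNA entries overlapped a snoRNA entry, and 2 of these were among the 12 that rose.

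The balance between the arms of a hairpin does not depend on the scaling of a library. It could be followed at 6 of the 98 loci with 1 entry for each arm, those with both arms above 0 in all 6 libraries, and 5 of the 6 passed (83.3%). miR-423 changed most. Its log2 ratio of 5p to 3p was −2.83, −2.22 and −2.67 in chromatin against 0.95, 0.60 and 0.51 in cytoplasm. The 5p arm was thus the lesser in every chromatin library and the greater in every cytoplasmic one. The change was −3.26 ± 0.29 (SE, limma adjusted p = 2.63e-10). That SE was the same at all 6 loci, since the fit pooled their spread. The 3p arm alone, at 1181, 1228 and 638 RPM against 914, 1141 and 1237 RPM, did not pass (limma adjusted p = 1).

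At miR-151 the ratio shifted the same way by −1.29 (limma adjusted p = 4.86e-04): the 5p arm had 5708, 4426 and 4131 RPM in chromatin against 9989, 10520 and 9410 RPM, and the 3p arm 10043, 9510 and 7200 against 6183, 7589 and 9513 RPM. miR-148a shifted by −1.08 (limma adjusted p = 0.00197) with its 3p arm far the greater in both fractions. miR-181c shifted toward 5p, by 0.92 (limma adjusted p = 0.00600). For miR-322, which shifted by 0.78 toward 5p (limma adjusted p = 0.0149), leaving out chromatin library 1 or 2 or cytoplasmic library 2 or 3 gave adjusted p between 0.0645 and 0.119. miR-148b did not pass (−0.52, limma adjusted p = 0.0864), but did without chromatin library 3 (0.00455).

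**Figure D4:**
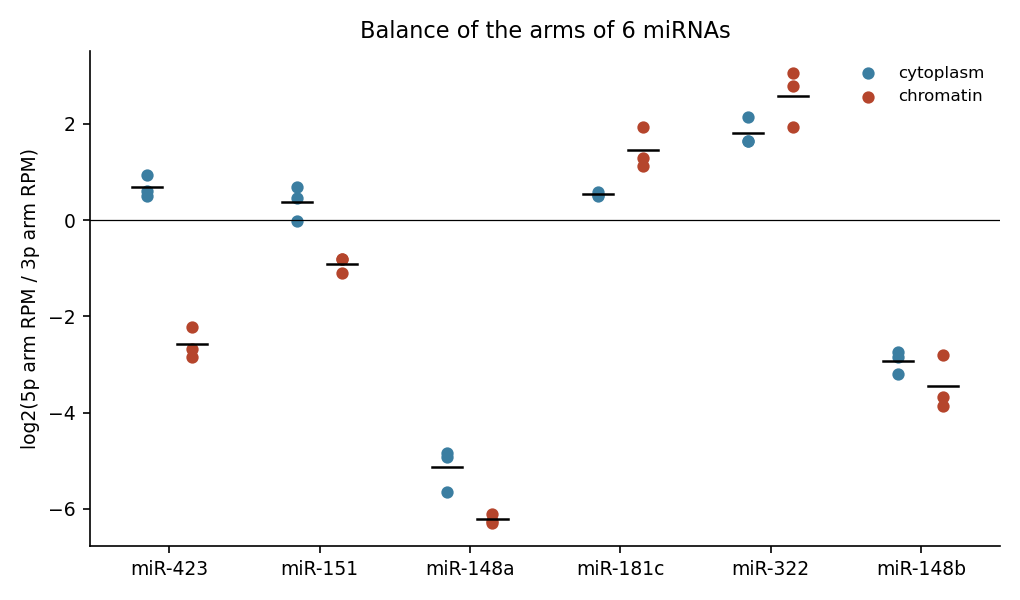
Log2 ratio of 5p to 3p arm RPM (vertical axis) at 6 miRNA loci; points are libraries and bars are means of 3 for cytoplasm and chromatin. At miR-423 the chromatin points lie between −2.83 and −2.22 and the cytoplasmic ones between 0.51 and 0.95.

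Of 159 tested tRNA entries 60 fell in chromatin (37.7%, against 19.5% of all entries) and 7 rose. On the miRNA scale 29 fell (18.2%, against 10.1%) and 7 rose. Of the 7 that rose in RPM, 6 were of lysine with the anticodon TTT and 1 was tRNA-Asn-GTT-3-1, at 71.8, 75.3 and 70.9 RPM in chromatin with cytoplasm at 0. Some entries of 1 anticodon, such as tRNA-Lys-TTT-1-3 and 1-6, had nearly equal values in every library, so they may share reads and are not independent. Lys-TTT had 6 of 9 tested entries higher and 1 lower on both scales. tRNA-Lys-TTT-1-1 (chr1:133033962-133034034) had 2530, 2745 and 4102 RPM in chromatin against 321, 369 and 402 RPM. The groups did not overlap, and it rose by 3.07 ± 0.28 on the log2 scale (SE, limma adjusted p = 1.98e-08). tRNA-Lys-TTT-1-2 rose by 2.15, from 332, 400 and 459 RPM to 1344, 1508 and 2621 RPM, and the entries 1-3, 1-5 and 1-6 by 2.74 to 2.77. tRNA-Lys-TTT-1-4 rose by 0.86 (limma adjusted p = 0.0447). The entries 2-1 and 2-2 did not pass (0.00 and −0.05), and tRNA-Lys-TTT-5-1 fell, at 0 in chromatin against 96.4, 127 and 79.0 RPM (limma adjusted p = 0.0073), a call lost with a common floor (0.165).

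Entries of the other lysine anticodon fell in RPM. Of 9 tested Lys-CTT entries 8 fell and 0 rose by limma, also at an unadjusted p of 0.05, but 2 fell on the miRNA scale. tRNA-Lys-CTT-2-2 had 441, 321 and 330 RPM against 1335, 1513 and 1618 RPM, a fall by 2.04 (limma adjusted p = 8.77e-05). Lower calls on both scales held for all 6 Glu-TTC entries, although 2 of these were called when only the 6 libraries were fitted. For His-GTG, 4 of 10 tested fell on both scales (40%). In RPM that was near the 37.7% of all tested tRNA entries, of which 18.2% fell on the miRNA scale. tRNA-His-GTG-2-2 had 172, 149 and 106 RPM in chromatin against 905, 839 and 883 RPM, a fall by 2.64 ± 0.42 (SE, limma adjusted p = 2.76e-05), with no overlap between the groups. The 3 Arg-CCT entries also fell, tRNA-Arg-CCT-2-1 from 503, 695 and 714 RPM in cytoplasm to 33.6, 0 and 0 RPM.

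The valine, leucine and glycine entries depended more on the scale. Their counts are read against all tested tRNA entries, of which 37.7% fell in RPM and 18.2% on the miRNA scale. Of Val-AAC 7 of 7 fell (2 on the miRNA scale), of Val-CAC 6 of 9 (1), of Leu-CAG 7 of 9 (1) and of Gly-GCC 8 of 15 (0, also at an unadjusted p of 0.05). Without chromatin library 2 or cytoplasmic library 3, 0 Gly-GCC entries were called lower by limma (7 and 8 at an unadjusted p of 0.05). Without chromatin library 3, 1 Val-CAC and 4 Val-AAC entries were. tRNA-Val-CAC-2-1 had 419, 377 and 269 RPM against 1868, 2053 and 2721 RPM and fell by 2.64 (limma adjusted p = 7.33e-06). Gly-CCC entries, 7 tested, gave 0 calls in either direction in the limma fit, also at an unadjusted p of 0.05. tRNA-Gly-CCC-4-1 had 116, 102 and 90.1 RPM against 74.9, 89.0 and 91.0 RPM.

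**Figure D5:**
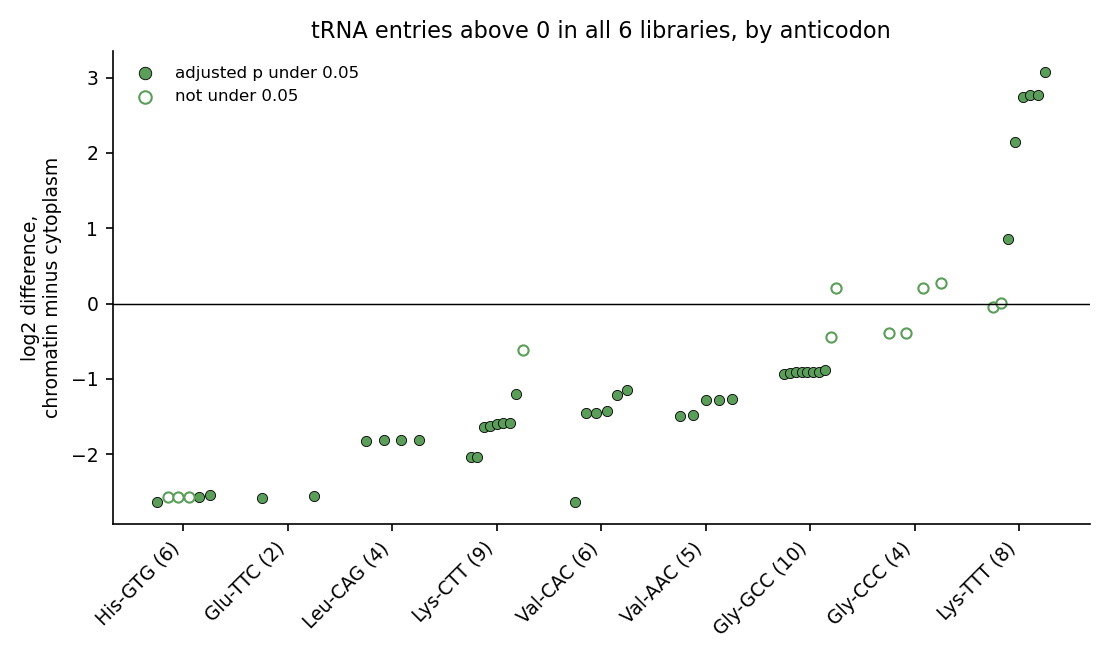
Log2 difference in RPM (chromatin minus cytoplasm, vertical axis) of tRNA entries above 0 in all 6 libraries, by anticodon with the number of entries; filled points passed an adjusted p of 0.05. The Lys-TTT points reach 3.07, with a median of 2.44, while the medians of Glu-TTC and His-GTG are at −2.57.

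Of the fragments listed apart from whole tRNAs, 7 of 28 tested rose (25%, near the 19.3% of all entries called higher) and 1 fell. The fragment entry tRNA-His-GTG-2-1-tRF3, from the 3′ part of a histidine tRNA, had 3765, 3883 and 3699 RPM in chromatin with cytoplasm at 0 (limma adjusted p = 1.96e-06). The entry tRNA-His-GTG-2-3-tRF5, from a 5′ part, had 1391, 1379 and 2311 RPM, also with cytoplasm at 0 (limma adjusted p = 0.000192). The called whole His-GTG entries, in contrast, were higher in cytoplasm. Whole and fragment entries of this anticodon, such as those of tRNA-His-GTG-2-1 and 2-3, overlap on the genome. The rule that assigned reads to them is not given in the sources used here. The contrast is thus not shown to be one between whole tRNA and fragment. Another fragment of this anticodon, tRNA-His-GTG-2-1-tRF5, was listed in both fractions, reaching 231 RPM in chromatin and 48.2 RPM in cytoplasm, and did not pass although the groups did not overlap. tRNA-Arg-ACG-1-3-tRF3 was listed in both, at 1957, 2003 and 1187 RPM against 213, 247 and 229 RPM, and rose by 2.86 ± 0.51 (SE, limma adjusted p = 0.000122). tRNA-Ile-AAT-1-1-tRF3 fell, at 0 in chromatin and 50.2, 39.5 and 65.0 RPM in cytoplasm (limma adjusted p = 6.43e-05). These values are near the lowest listed ones, and the call was lost with a common floor (limma adjusted p = 1).

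rRNA and piRNA entries were few. Of 14 tested rRNA entries 3 fell (21.4%, near the 19.5% of all entries) and 0 rose in the limma fit (4 and 0 at an unadjusted p of 0.05). The 5S entries n-R5s151 and n-R5s93 had identical values of 265, 1120 and 211 RPM in cytoplasm and 0 in chromatin (limma adjusted p = 1.94e-06 and 2.08e-06), and thus may hold the same reads. The libraries were depleted of rRNA, so these levels do not describe rRNA in the cell. Of 11 tested piRNA entries 2 fell (18.2%, likewise near it). mmu_piR_000362, at 0 in chromatin and 247, 198 and 0 RPM in cytoplasm (limma adjusted p = 0.0171), did not pass without cytoplasmic library 1 or 2 (0.113 and 0.102).

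The difference between chromatin and cytoplasm was also tested against that of the other cells. It was unlike that of stem cells for 262 of 851 entries (30.8%), 161 more positive (18.9%) and 101 more negative (11.9%) in progenitors by limma. Against neurons it was unlike for 147 (17.3%), 95 (11.2%) and 52 (6.11%). Of 418 tested miRNA entries 112 were more positive and 28 more negative than in stem cells, and of 196 tested snoRNA entries 17 and 36. Against neurons, 159 tested tRNA entries gave 34 and 1. These class counts are in RPM and are to be read against the shares of all entries above. Over all entries, the 161 more positive calls against stem cells became 105 on the miRNA scale. The Snord69 difference exceeded that of stem cells by 1.32 (limma adjusted p = 0.0121). In stem cells it had 27236 RPM in chromatin and 413 RPM in cytoplasm on average, against 22424 ± 4418 and 144 ± 5.57 RPM in progenitors (SD, n = 3). tRNA-Lys-TTT-1-1 exceeded the neuronal difference by 1.54 (limma adjusted p = 0.00997), where its means were 674 RPM in chromatin and 236 RPM in cytoplasm. The median over the 159 tested tRNA entries was also 1.54, so this entry stood at the level of its class.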

How the data were processed

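The labels describe RNA under 200 nt, depleted of rRNA, libraries size-selected at 120 to 160 bp, and 100 bp single-end reads. The authors deposited 1 table of RPM (reads scaled to library size) for 27 libraries. Not given in the sources used here: aligner, build and rule for shared reads. GRCm38 annotation (GENCODE M21) had the same coordinates for 285 of 288 Ensembl identifiers. Counts and depth are not known, so no counting intervals are given, and the lowest value above 0 is given as a guide. A limma model (version 3.58.1, R 4.3.3) of log2(RPM + 1) had a trended, robust variance, 9 group means and 18 residual degrees of freedom. It covered the 851 entries that reached 1 RPM in 3 or more libraries. p-values were adjusted by Benjamini-Hochberg with a threshold of 0.05, and the fit was tested on simulated data. Log2 differences are on the log2(RPM + 1) scale, which understates changes of low entries above 0. Where a fraction was listed at 0 they depend on the pseudocount and can be overstated. No fold is given where a fraction was listed at 0.

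Arm balance was fitted as log2(5p/3p) in the 6 libraries, with the spread pooled over its loci. Class shares were compared by exact permutation. "On the miRNA scale" means each library divided by its miRNA reads. Alternatives were other scalings, a pseudocount of 10, a common floor, filters, fewer libraries, a replicate block, summed hairpins and arms, and leaving out each library. Named entries were the 8 largest in each direction among those called and above 0 in all 6 libraries, the 8 most abundant in each direction with 1 fraction at 0, the 10 most abundant of all, the 3 most abundant of each class and list, the 5 arm loci with the largest changes in each direction, and the 4 largest interactions in each direction. Others, such as members of a described host or anticodon, partner arms, and entries named after their values were seen (mir-503, mir-326, miR-5099, miR-3535, miR-298-5p, Gm25855, tRNA-Ile-AAT-1-1-tRF3), were added. The comparison and its lists were chosen with earlier results of these data known.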

Additional observations from a re-analysis of the deposited data

Results flagged for a closer look

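Both comparisons with other cells below are limma tests of the difference itself, called because the chromatin minus cytoplasm difference of the progenitors was unlike that of the other cell type. Values are log2 and positive where the progenitor difference was the more positive. Single entries are those named in the text and above 0 in all 12 libraries of a comparison. A further 22 named entries against stem cells and 12 against neurons were called with some libraries at 0, and no size is given for these. The 2 comparisons share the progenitor libraries. The cause of these differences was not tested.

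Against stem cells 262 entries were unlike. Snord69 differed by 1.32. Among miRNAs, miR-26a-5p differed by 1.57 at both its entries, miR-143-3p by 1.49 and miR-130a-3p by 1.46. miR-30e-5p differed by 1.05, miR-30a-5p by 1.02 and miR-30d-5p by 0.88. The median over all 418 tested miRNA entries was 0.86 in RPM, so the miR-30 values lay near the level of their class. A departure from that level was not tested. In stem cells miR-130a-3p had 1841 RPM in chromatin and 6563 RPM in cytoplasm on average, against 3392 and 4362 RPM in progenitors. The tRNAs named here went the other way. Naming took in the largest differences in each direction, so these entries do not stand for their class. Of 159 tested tRNA entries, 15 were more positive and 28 more negative than in stem cells by limma. tRNA-Gly-CCC-4-1 differed by −2.72, with 7017 RPM in stem cell chromatin and 859 RPM in cytoplasm against 103 and 84.9 RPM in progenitors. tRNA-Lys-TTT-2-1 differed by −2.37, tRNA-Gly-GCC-4-1 by −2.29 and tRNA-Lys-TTT-2-2 by −2.22.

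Against neurons 147 entries were unlike. tRNA-Gly-GCC-2-6 differed by 2.79, with 253 RPM in neuronal chromatin and 1458 RPM in cytoplasm against 245 and 213 RPM in progenitors. tRNA-Gly-CCC-4-1 differed by 2.35, tRNA-Val-CAC-2-5 by 2.28, tRNA-Val-AAC-1-1 by 2.12, tRNA-Gly-GCC-4-1 by 1.55 and tRNA-Lys-TTT-1-1 by 1.54. The values of tRNA-Gly-GCC-4-1 and tRNA-Lys-TTT-1-1 lay at about the median of 1.54 over all 159 tested tRNA entries. miR-301a-3p differed by −2.15, miR-30e-5p by −1.93, miR-19a-3p by −1.89, miR-34c-5p by −1.86 and miR-30a-5p by −1.16. miR-30e-5p had 13043 RPM in neuronal chromatin and 6640 RPM in cytoplasm, the reverse order of the progenitors.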

How the results depend on the processing

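Under other scalings, calls higher in chromatin moved less than calls lower. Against 164 higher and 166 lower, scaling on entries listed in all 27 libraries gave 171 and 98, scaling to miRNA reads 163 and 86, and scaling to reads outside snoRNA 166 and 91. Lower miRNA calls, 99, became 56, 50 and 54 in that order, and lower tRNA calls, 60, became 35, 29 and 30. Testing only entries above 0 in all 6 libraries left 9 higher and 81 lower, with 2 higher snoRNA, 45 lower miRNA and 36 lower tRNA entries, since fewer entries were tested. Fitting the 6 libraries alone gave 137 higher, 122 lower and 65 lower miRNA entries.

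For the difference from stem cells, 161 more positive calls became 105 on the miRNA scale and 42 among entries above 0 in all 6 libraries, and 101 more negative calls became 165 with a common floor and 22. For neurons, 95 became 20 among such entries, and 52 became 14, or 123 when scaled on shared entries. Outside snoRNA reads the tRNA share differed by 0.432 and the piRNA share by 0.0104 percentage points, both reversed. Among named entries that passed in RPM, the sign on shared entries also turned for miR-30a-5p (0.00605), let-7i-5p (0.0718), miR-181b-5p (0.0240), miR-30d-5p (0.0458) and miR-130a-3p (0.38). On the miRNA scale it turned for let-7i-5p (0.0412), miR-30d-5p (0.0152) and miR-130a-3p (0.35), and outside snoRNA for miR-130a-3p (0.30), which passed as a rise on the miRNA scale and outside snoRNA (limma adjusted p = 0.00438 and 0.0258). Sign turns of entries not called in RPM are not listed. Except where fewer entries or libraries were fitted, the cause was not tested.

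Leaving out each library in turn gave 151 to 162 higher and 117 (without chromatin 3) to 186 lower calls, 116 to 124 higher snoRNA, 66 (without chromatin 3) to 119 lower miRNA and 44 to 60 lower tRNA entries. It gave 147 to 178 and 86 to 120 calls against stem cells, 72 to 93 and 43 to 69 against neurons, and 1 to 2 arm loci higher and 3 to 4 lower. The snoRNA share stayed 27.2 to 35.8 percentage points higher in chromatin and the miRNA share 27.9 to 37.1 points lower. Of 93 named entries 53 kept call and direction under every alternative fitted entry by entry and 5 reversed under at least 1. Summing hairpins and arms is apart from this, and requiring values above 0 left 53 of the 93 to test.

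Same-numbered chromatin and cytoplasm libraries did not deviate together (r of 0.05, 0.000376 and 0.02 across entries), so the numbers were not taken as pairs. A fit with the replicate block gave 166 higher and 175 lower. Averaging same-named entries and summing pieces, chosen after seeing the data, gave 158 and 136. The lowest listed value of a library was 22.5 to 59.1 RPM, and values under it may stand as 0. Some entries were at 0 in a library and at 10 times 59.1 RPM or more in another of the same fraction. In chromatin these were 17 of 239 snoRNA, 4 of 483 miRNA and 2 of 27 snRNA entries. In cytoplasm they were 1 miRNA and 1 rRNA entry. Calls of entries near the lowest listed value depend on how a 0 is read, and whether a 0 follows from depth was not tested.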
